A study of Mus musculus with 35 samples.

Results

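The Slc25 family of mitochondrial carriers was followed in single mouse peritoneal macrophages through the 47 genes whose symbol is Slc25a and a number. These 47 are all of the symbols of that form among the 32285 features of the lactate and technique tables and the 35624 symbols of the AZD3965 table, and membership goes by the symbol, with no measured value used. The study paired single-cell metabolomics with RNA sequencing (scMeT-seq), in which a nanocapillary draws cytoplasm from a living cell for mass spectrometry before the rest is lysed for SMART-seq2 over 20 PCR cycles. All 35 libraries are labelled as single macrophages from the abdominal cavity of 6-month-old male C57BL/6 mice, selected by adherence, and no genotype differs between them. In the lactate experiment 8 scMeT-seq cells received 10 mM lactate for 72 h and 8 scMeT-seq cells were controls without it. In the AZD3965 experiment, which the paper describes as scMeT-seq, 5 cells received lactate with 300 nM AZD3965 (lactate+AZD) and 5 cells lactate without it. AZD3965 is an inhibitor of the lactate transporter MCT1. Lactate was at 10 mM and treatment lasted 72 h in every experiment. The technique experiment holds 4 lactate-treated scMeT-seq cells, and 3 lactate-treated and 2 control cells that were lysed whole.

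Slc25 proteins are carriers with a repeated fold that exchange nucleotides, phosphate, carboxylates, amino acids and cofactors across the inner mitochondrial membrane, after import from the cytosol through the TOM complex and the TIM22 carrier translocase. Slc25a4 and Slc25a5 export ATP for ADP and Slc25a3 imports phosphate for its synthesis, while Slc25a11 with Slc25a12 or Slc25a13 forms the malate-aspartate shuttle, which passes the electrons of cytosolic NADH, made for instance when lactate is oxidised to pyruvate, into mitochondria. A few members sit elsewhere: Slc25a17 is a carrier of peroxisomes and Slc25a46 lies in the outer mitochondrial membrane.

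The labels name no animal or culture for any cell, so each group counted as 1 sample, no test over cells was run, no difference has a replicate check, and ranges over cells are descriptions. Each group's counts were added up and scaled to 1000000 counts (CPM). Log2 ratios compare these CPM values and carry exact 95% binomial intervals, given in parentheses, that cover counting error only. Being computed from added counts, they leave out variation between cells. PCR copies without molecular identifiers are not independent molecules, so the intervals can be too narrow even for counting error. A member was measured in a comparison with at least 10 counts over both groups, and called with a difference of at least 2-fold and an interval on that side of 0. Depth was 269393 to 459859 counts per cell in the lactate experiment, 494520 to 851417 in the technique experiment and 58444 to 175450 in the AZD3965 experiment, and no pair of cells held identical counts. In the AZD3965 table the value 2 was commoner than the value 1 (6215 against 1914), unlike in the other tables, so a single count there may not stand for a single fragment. Macrophage markers summed to between 31150 and 126366 CPM in 34 of the 35 cells. In 4 cells there were summed fibroblast, mesothelial or lymphocyte markers of at least 10% of the macrophage markers. The control cell CTL32 went against its label, with 43656 CPM of the 14 fibroblast markers and 1387 CPM of the 18 macrophage markers. CTL30 had 9387 against 38585 CPM, Lactic29 7324 against 43714 CPM, and W14 (lactate+AZD) 17538 against 31150 CPM. Beside the values of all cells, named members are also given without these cells where that changes a call or moves the ratio by over 1.5-fold.

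Expression of the family was carried by few genes. Of the 47 members, 42 had a count in at least 1 cell, 11 in at least 30 of the 35 cells and 14 in 18 to 29 cells. A further 11 were found in 6 to 17 cells and 6 in 1 to 5 cells, and Slc25a2, Slc25a31, Slc25a41, Slc25a48 and Slc25a54 had no count in any cell. Among them, Slc25a31 is the ADP/ATP carrier of the male germ line. A count of 0 over the 12879422 counts of all cells allows up to 0.233 CPM each. The summed CPM of all members ran from 945 to 2994 with a median of 2160 over the 35 cells, and lay between 1671 and 2994 in every cell except Lactic31, the lowest.

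**Figure D1:**
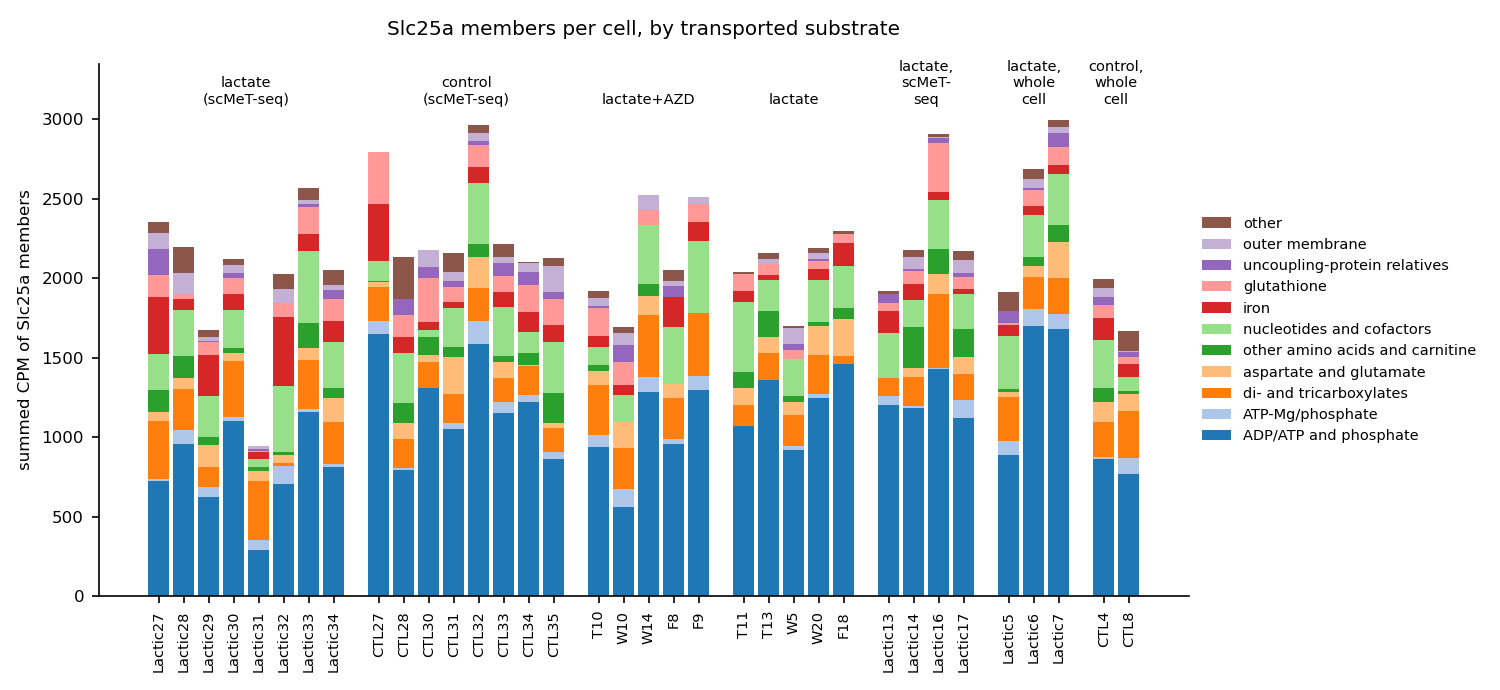
Summed CPM of the 47 Slc25a members (y axis) in each of the 35 cells (x axis), split by the substrate class of the carriers. The ADP/ATP and phosphate carriers form the lowest and tallest segment, 49.8% of the family's mean CPM, and Lactic31 is the shortest bar with 945 CPM.

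Slc25a5, Slc25a3 and Slc25a4 together made up 30.8% to 63.5% of the family's CPM in a cell, with a median of 51.0%. Nucleotide and cofactor carriers followed with 12.2% of the family's mean CPM and di- and tricarboxylate carriers with 10.6%. The iron carriers made up 5.20%, the glutathione carriers 5.12% and the aspartate and glutamate carriers 4.43%.

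These shares are not corrected for length. Single members were ranked as CPM per kilobase of merged exons, averaged over the 35 cells. Slc25a5, the ADP/ATP carrier of proliferating and most somatic cells, stood first with 309 CPM per kilobase. Slc25a4, the ADP/ATP carrier best known from heart and muscle, had 86.5 and Slc25a3 66.9 CPM per kilobase. Slc25a11, the 2-oxoglutarate/malate carrier, had 49.4, Slc25a1, the citrate carrier, 42.5 and Slc25a39, a glutathione carrier, 36.3 CPM per kilobase. Slc25a37 (mitoferrin-1), which brings iron in for heme and iron-sulfur clusters, came seventh with 18.1 CPM per kilobase. Per kilobase of the principal transcript, a scale added after the data had been seen, Slc25a3 passed Slc25a4 (230 against 106 CPM per kilobase) and Slc25a39 passed Slc25a1 (59.4 against 55.2), while Slc25a5 stayed first at 411. The merged exons of Slc25a3 include retained intron models and add up to 5550 bases, against 1612 bases of its principal transcript.

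Related carriers were set side by side within cells in 7 pairs. Slc25a5 stood above Slc25a4 per kilobase in 34 of 35 cells, on either length scale. The exception was Lactic31, with 58.8 CPM of Slc25a5 and 194 CPM of Slc25a4. Slc25a37 was above its relative Slc25a28 (mitoferrin-2) per kilobase in 32 of 35 cells and had a count in 33, against 11 cells for Slc25a28, and in 30 of 35 cells per kilobase of the principal transcript. Slc25a39 was above Slc25a40, the second glutathione carrier, in 33 of 35 cells. The other pairs gave lower numbers, in which cells without a count of either member do not count as above. Slc25a24 was above Slc25a25, a related ATP-Mg/phosphate carrier, in 27 of 35 cells and the pyrimidine nucleotide carrier Slc25a36 above Slc25a33 in 23 (24 and 27 cells by principal transcript). Of the aspartate/glutamate carriers Slc25a12 was above Slc25a13 in 20 of 35 cells and had a count in 30 cells, against 21 for Slc25a13. Slc25a22 and Slc25a18, which carry glutamate with protons, had a count in 20 and 8 cells, and Slc25a22 was above Slc25a18 in 16 of 35 cells. With a count in 8 cells, Slc25a18 can be above in 8 at most. By principal transcript Slc25a22 was above Slc25a18 in 19 cells, and Slc25a12 above Slc25a13 in 19.

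**Figure D2:**
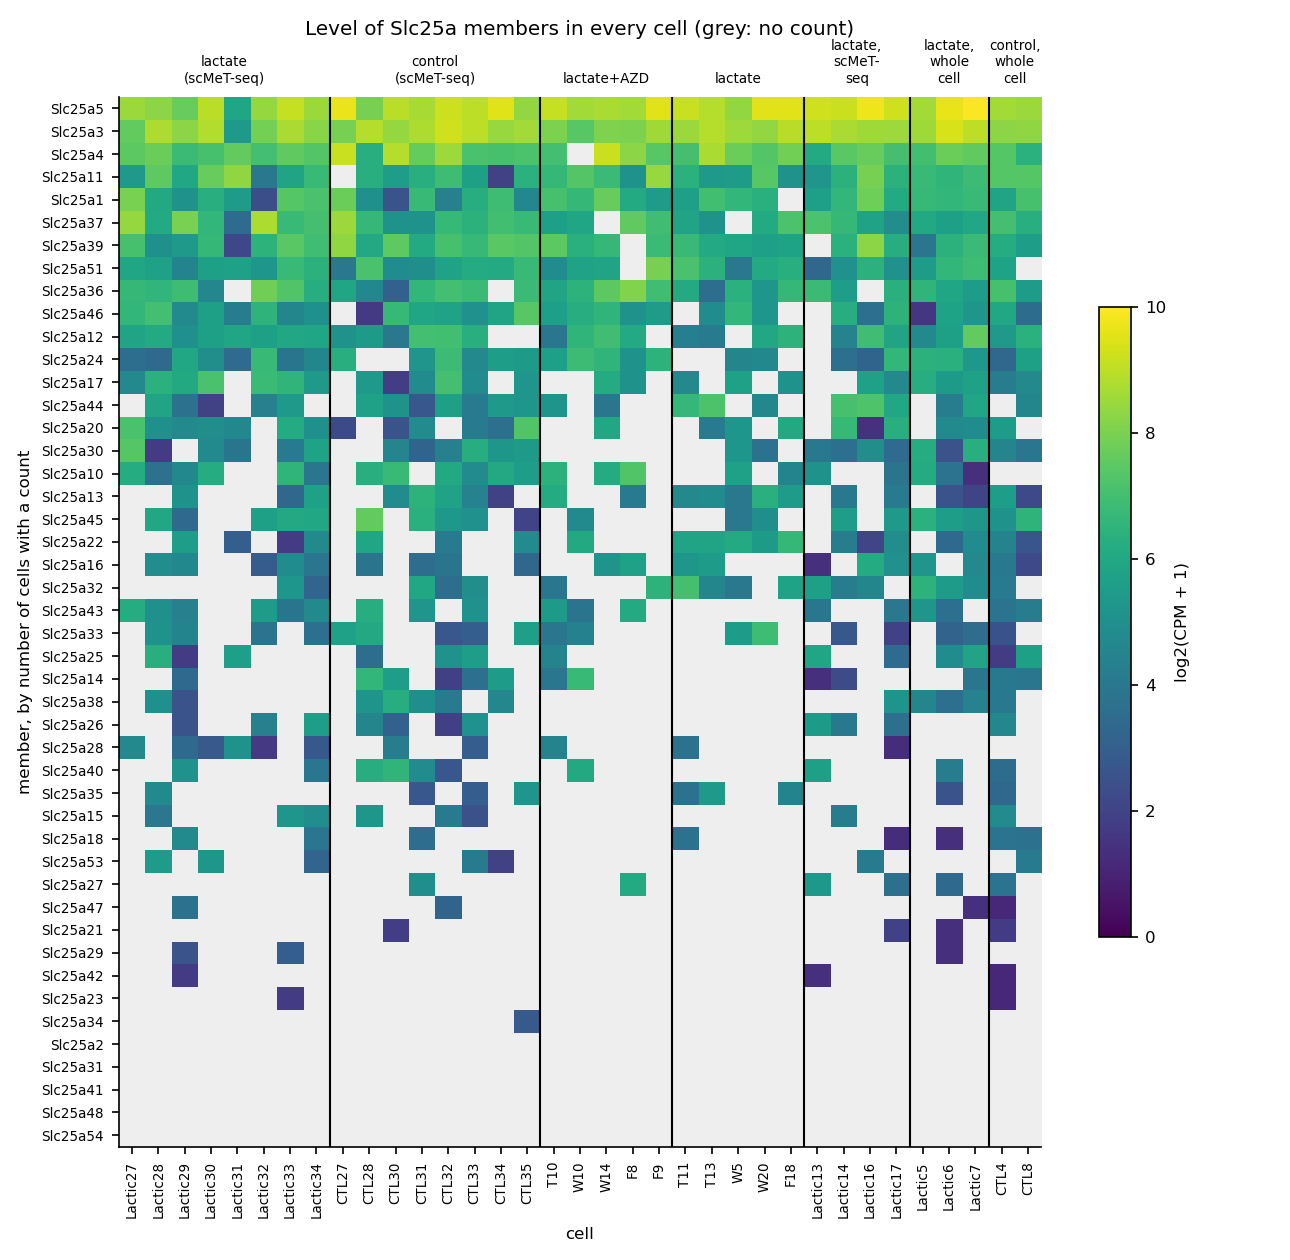
Level of 46 members (rows, ordered by the number of cells with a count) in each of the 35 cells (columns, by group), as log2(CPM + 1), with grey for no count. Slc25a5 and Slc25a3 are coloured in all 35 columns, and the lowest 5 rows are grey throughout.

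The number of members with a count in a cell had a median of 23.0 in lactate and 24.5 in control scMeT-seq cells, 17 in lactate+AZD and 19.0 in lactate cells of the AZD3965 experiment, 22.0 in the scMeT-seq cells of the technique experiment, 28 in lactate whole cells and 30.0 in control whole cells. Thinned to the smallest total of each experiment, the medians were 22.7 and 24.2, 16.4 and 17.9, and 21.9, 27.5 and 29.2 members. Within an experiment the groups overlapped. CTL4, a control whole cell and the deepest library, had the most members, 36, and CTL27 (control scMeT-seq) and F9 (lactate+AZD) the fewest, 12 each.

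Strand use in counting is not given in the sources used here. Slc25a10, Slc25a11, Slc25a18, Slc25a21, Slc25a23, Slc25a25, Slc25a26, Slc25a33, Slc25a35, Slc25a37 and Slc25a46 share 32 to 1151 exon bases with a gene on the other strand, and reads from those stretches cannot be told apart. Slc25a47 and Slc25a51 share 5 and 125 exon bases with a small RNA gene on their own strand.

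For the 3 members that form most of the family signal, the stretch before the annotated start is shown as RefSeq gives it (GRCm38.p6). They were chosen because they shared a sign within each comparison of lactate with control. That sign was not the same in both: they were lower with lactate in scMeT-seq cells and higher in whole cells. Each line is 250 bases, 5′ to 3′ on the gene's strand up to the base before the start, with capitals marking GC boxes (GGGCGG) and CCAAT boxes on either strand.
Slc25a3 (chr10:91123968-91124217, minus strand): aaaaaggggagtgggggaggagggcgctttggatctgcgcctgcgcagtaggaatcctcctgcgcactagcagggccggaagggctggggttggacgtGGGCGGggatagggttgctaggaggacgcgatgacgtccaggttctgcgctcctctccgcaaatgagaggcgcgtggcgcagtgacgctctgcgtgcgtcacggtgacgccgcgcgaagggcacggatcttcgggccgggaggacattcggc
Slc25a4 (chr8:46211063-46211312, minus strand): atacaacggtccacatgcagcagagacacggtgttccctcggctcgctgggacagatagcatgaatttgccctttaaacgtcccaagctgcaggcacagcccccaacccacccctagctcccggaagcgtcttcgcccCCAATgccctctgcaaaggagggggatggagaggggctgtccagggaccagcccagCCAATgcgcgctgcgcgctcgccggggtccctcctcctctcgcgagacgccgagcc
Slc25a5 (chrX:36795347-36795596, plus strand): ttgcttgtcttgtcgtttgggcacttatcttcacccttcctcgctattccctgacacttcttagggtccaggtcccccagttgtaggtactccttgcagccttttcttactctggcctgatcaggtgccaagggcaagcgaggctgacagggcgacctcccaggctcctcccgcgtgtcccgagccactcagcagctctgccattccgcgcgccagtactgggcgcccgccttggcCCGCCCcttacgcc
Slc25a3 and Slc25a5 held 1 GC box each and no CCAAT box, and Slc25a4 held 2 CCAAT boxes and no GC box. The starts are those of RefSeq. In GENCODE M21 the genes Slc25a3 and Slc25a4 reach further upstream, to bases 91124059 and 46211284, so part of each window lies inside the gene. The CCAAT boxes of Slc25a4 fall in that part. RefSeq windows were at hand for 36 of the 47 members, 46 windows in all. A GC box stood in 69.6% of these windows, against 32.7% of all 32851 windows, a CCAAT box in 45.7% against 33.8% and an E-box (CACGTG) in 17.4% against 6.0%. The NRF1 core GCATGCGC was in 2 of the 46 windows (4.3% against 2.3% of all), the cyclic AMP element TGACGTCA in 2 (4.3% against 1.5%) and the ERR half-site AAGGTCA in 1 (2.2% against 4.1%). Both strands were searched. A match describes the letters of a window and is no evidence of a bound site.

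The comparison of lactate with control scMeT-seq cells asks how the carriers stood after 72 h of lactate. The ADP/ATP and phosphate carriers were lower with lactate, at less than 2-fold each, and glycine, glutathione and uncoupling-protein related carriers of low level were lower at more than 2-fold. The mitoferrins and the 2-oxoglutarate carrier stood higher. Of 36 measured members, 5 were called higher (13.9%, against 14.1% of all 11506 genes measured) and 7 lower (19.4%, against 20.9% of all genes), shares close to the background. The median log2 ratio was -0.16 over the members and -0.09 over all genes. The summed family was at 2028 CPM with lactate and 2314 CPM in control cells, a log2 ratio of -0.19 (-0.24 to -0.14).

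The carriers of ATP synthesis, Slc25a3, Slc25a4 and Slc25a5, summed to 813 CPM in lactate and 1182 CPM in control cells, a log2 ratio of -0.54 (-0.62 to -0.47). Per cell the sum had a lowest value of 294, a median of 768 and a highest of 1161 CPM with lactate, against 794, 1186 and 1652 CPM in control cells, so the groups overlapped. Slc25a5 ran from 58.8 over a median of 351 to 554 CPM in lactate cells and from 249 over 500 to 843 CPM in control cells (log2 -0.55, -0.66 to -0.43). The ratio was -0.49 for Slc25a3 (-0.61 to -0.36) and -0.63 for Slc25a4 (-0.79 to -0.46), none of the 3 past 2-fold. The medians of Slc25a4 were nearly level, at 167 CPM with lactate and 172 CPM in control cells, and its 3 highest cells were the control cells CTL27 (564 CPM), CTL30 (478 CPM) and CTL32 (371 CPM). Without CTL30, CTL32 and Lactic29 the sum's log2 ratio was -0.37 (-0.46 to -0.29), that of Slc25a5 -0.42 and that of Slc25a4 -0.15 (-0.35 to 0.05). With any single cell left out the sum stayed between -0.65 and -0.45.

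**Figure D3:**
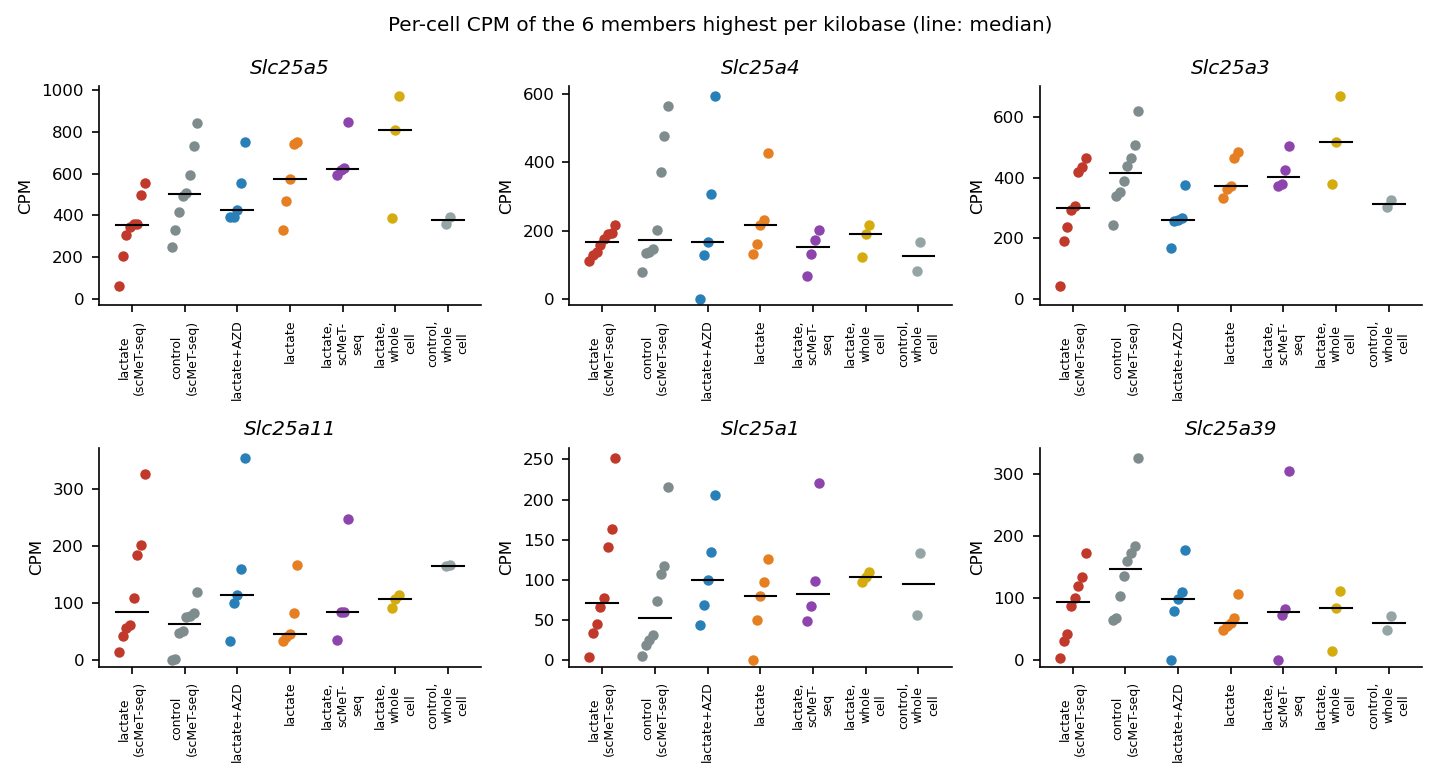
CPM per cell (y axes, linear and scaled to each gene) of the 6 members highest per kilobase, by group (x axes), each dot a cell and each line a median. Slc25a5 has medians of 351 and 500 CPM in lactate and control scMeT-seq cells, and 2 of the 3 lactate whole cells lie far above both control whole cells.

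Members of the malate-aspartate shuttle went different ways. Slc25a11 had a lowest value of 15.2, a median of 85.1 and a highest of 325 CPM with lactate, against 0, 63.0 and 119 CPM in control cells, a log2 ratio of 0.94 (0.68 to 1.22) that falls short of 2-fold. Its highest value came from Lactic31, where the rest of the family was lowest, and the ratio was 0.63 without that cell. It passed the threshold with any of 8 single cells left out (1.01 to 1.17) and without the 3 cells of other markers (1.25, 0.94 to 1.57). Slc25a12 was level, at 54.6 CPM with lactate and 54.4 CPM in control cells. Slc25a13 was called lower (11.8 against 24.5 CPM, log2 -1.05, -1.67 to -0.45), with a count in 3 lactate and 5 control cells. That call ended with any of 8 single cells left out, and the ratio was -0.39 without CTL31 and -1.87 without Lactic34. The 4 shuttle enzymes Mdh1, Mdh2, Got1 and Got2 summed to 510 CPM in lactate and 743 CPM in control cells, with none of the 4 called. Other carboxylate carriers were not called either: Slc25a1 had 95.7 and 68.0 CPM (log2 0.49, 0.23 to 0.76), and Slc25a10, which exchanges malate and succinate for phosphate, 36.2 and 51.0 CPM (-0.49, -0.86 to -0.13), which were level without the 3 cells of other markers (0.00, -0.43 to 0.44).

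Carriers of iron summed to 199 CPM with lactate and 111 CPM in control cells, a log2 ratio of 0.84 (0.64 to 1.04). Slc25a37 had a lowest value of 10.4, a median of 119 and a highest of 431 CPM in lactate cells, against 32.9, 101 and 360 CPM in control cells. The groups overlapped over nearly their whole range, and the log2 ratio of 0.81 (0.62 to 1.02) was 0.45 without Lactic32 and 1.20, past the threshold, without CTL27. Slc25a28 was called higher (9.21 against 3.40 CPM, 1.44, 0.35 to 2.64), with a count in 6 lactate and 2 control cells, on 28 and 10 counts. It was 2.97 without CTL30 and 2.73 (1.01 to 5.11) without the 3 cells of other markers, and the call ended without Lactic27 (1.06) or Lactic31 (0.95).

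The lower calls that held with each of the 16 cells left out in turn were Slc25a14, Slc25a38 and Slc25a40. Slc25a14, a relative of the uncoupling proteins best known from brain, had a count in 1 lactate cell (Lactic29, 9.79 CPM) and in 5 control cells, the highest with 97.8 CPM (CTL28). On 4 and 84 counts its log2 ratio was -4.44 (-6.35 to -3.03), or -3.61 without CTL28. The only lactate cell with a count is also the lactate cell of fibroblast markers, and without the 3 cells of other markers there were 0 counts in lactate and 64 in control cells. Slc25a38, the glycine carrier of heme synthesis, had a count in 2 lactate cells (31.7 and 4.90 CPM) and in 5 control cells (16.6 to 73.3 CPM), for a log2 ratio of -2.27 (-3.18 to -1.45), or -1.70 without the cells of other markers and -4.97 without Lactic28. Slc25a40 had a count in 2 lactate cells (34.3 and 14.3 CPM) and in 4 control cells (5.54 to 91.0 CPM), at -2.14 (-2.94 to -1.40). It was -3.37 without the cells of other markers, -1.50 without CTL30 and -3.86 without Lactic29. Its partner Slc25a39 was at 88.5 CPM with lactate and 143 CPM in control cells (-0.69, -0.92 to -0.47).

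Among carriers of cofactors and nucleotides, the peroxisomal Slc25a17 had a lowest value of 0, a median of 74.5 and a highest of 139 CPM in lactate cells, against 0, 27.5 and 133 CPM in control cells. It was called higher (log2 1.10, 0.75 to 1.45). The highest control value came from CTL32, the cell of fibroblast markers. The ratio was 1.84 without CTL32 and 1.65 (1.20 to 2.12) without the 3 cells of other markers, whereas leaving out Lactic30, Lactic32, CTL27, CTL30 or CTL34 gave 0.90 to 0.96, just short of the threshold. Slc25a16, thought to carry coenzyme A, was called higher on 42 and 18 counts (1.18, 0.35 to 2.06), and Slc25a33, a pyrimidine nucleotide carrier, lower on 33 and 64 counts, at the 2-fold threshold (interval -1.65 to -0.38). The call of Slc25a16 ended with 6 single cells left out (0.90 without Lactic28) and that of Slc25a33 with 7 (-0.37 without CTL28), its ratio being -1.59 without Lactic28 and -1.64 (-2.38 to -0.94) without the 3 cells of other markers. Slc25a36, the other pyrimidine nucleotide carrier, was at 108 CPM with lactate and 66.6 CPM in control cells (0.70, 0.44 to 0.96). Slc25a20, which brings acylcarnitines in for fatty acid oxidation, was at 43.1 and 25.2 CPM (0.78, 0.35 to 1.21), and passed the threshold without Lactic32 (1.01) or CTL35 (2.23). Slc25a22 was at 10.2 and 14.3 CPM (-0.49, -1.20 to 0.22) and not called, but was lower at -1.65 without Lactic29 and at -1.85 (-2.93 to -0.88) without the 3 cells of other markers.

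Other calls rested on few cells. Slc25a18 was higher (1.95, 0.32 to 3.99) on 2 lactate cells and 1 control cell, and no longer called without Lactic29 or Lactic34, nor measured without the 3 cells of other markers. Slc25a53 was higher (2.04, 0.90 to 3.36) on 3 and 2 cells, at 4.81 without CTL33, and its call ended without Lactic28. Slc25a32, a folate and FAD carrier, was lower (-1.08, -1.96 to -0.26) on 2 and 3 cells, at -3.53 without Lactic33 and -0.08 without CTL31. Slc25a27, a relative of the uncoupling proteins, was at 0 in all lactate cells and had 11 counts in the control cell CTL31, at least 3.79-fold lower against a floor of 3 counts over the group.

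Without Lactic29, CTL30 and CTL32, 5 members were called higher and 8 lower of 35 measured, against 18.5% and 17.3% of all genes. Fibroblast markers moved with the comparison, summing to 1272 CPM in lactate and 6826 CPM in control cells, with 11 of 12 measured markers lower. Per cell they ran from 26.8 to 7324 CPM with lactate and from 0 to 43656 CPM in control cells. Their part in the member values was not tested beyond leaving those cells out.

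**Figure D4:**
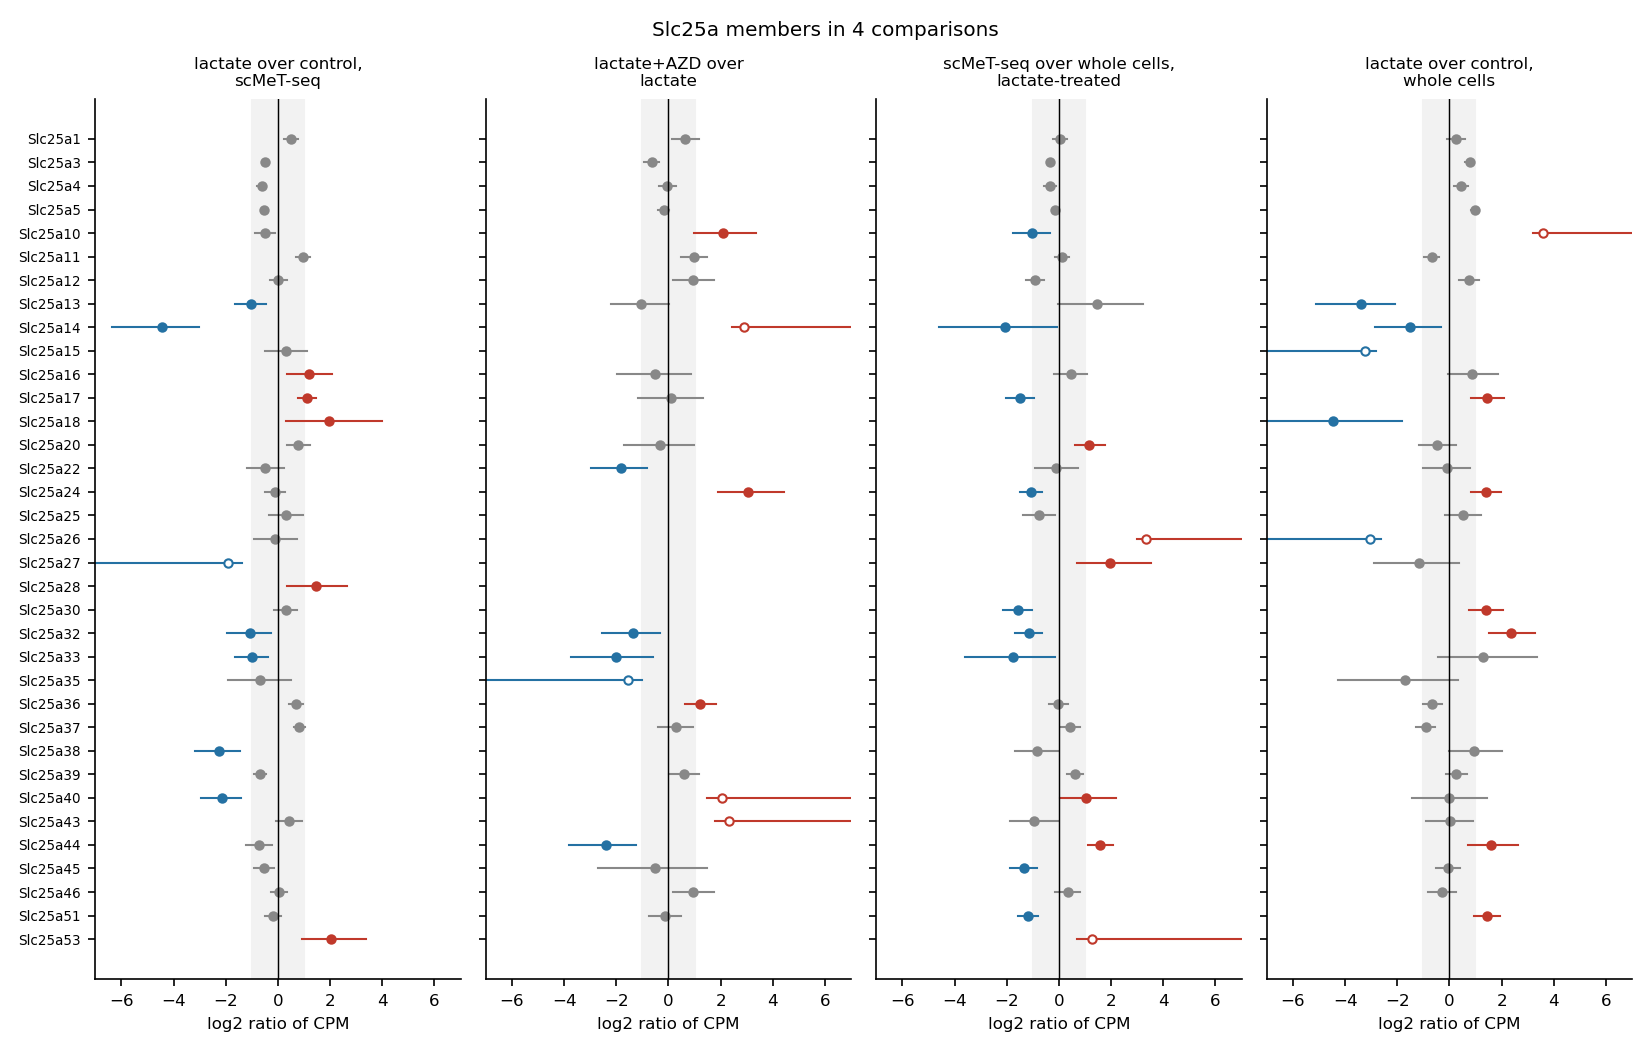
Log2 ratio of CPM (x axes) for the measured members shown (rows) in the 4 comparisons, with exact 95% counting intervals drawn to 7 at most in either direction. Red and blue mark members called higher and lower, open circles a group with no count, and the grey band less than 2-fold; Slc25a3, Slc25a4 and Slc25a5 lie left of 0 in the scMeT-seq comparison and right of 0 in whole cells.

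In whole cells the same treatment was compared in 3 lactate and 2 control cells that share no cell with the comparison above. Here the ADP/ATP and phosphate carriers stood higher with lactate. In this comparison TMM scaling would raise every log2 ratio by 0.19. Of 34 measured members, 7 were called higher (20.6%, against 14.1% of 9732 genes) and 5 lower (14.7%, against 26.4% of all genes). The median log2 ratio was 0.13 over the members and -0.20 over all genes. The family summed to 2581 CPM in lactate and 1868 CPM in control whole cells, at 0.47 (0.40 to 0.54).

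Slc25a3, Slc25a4 and Slc25a5 together were at 1463 CPM in lactate and 825 CPM in control whole cells, a log2 ratio of 0.83 (0.73 to 0.93). The cells had 890, 1698 and 1682 CPM with lactate (Lactic5, Lactic6 and Lactic7) and 862 and 768 CPM in control (CTL4 and CTL8), so Lactic5 was close to the control cells and the other lactate cells lay well above them. Slc25a5 was at 386, 810 and 974 CPM with lactate and at 393 and 360 CPM in control, where Lactic5 fell between the control cells (0.98, 0.83 to 1.13), and was called without Lactic5 (1.23) or CTL4 (1.06). Slc25a3 was at 380, 672 and 519 CPM against 303 and 326 CPM, without overlap (0.77, 0.61 to 0.94). Each of the 3 had the opposite sign in scMeT-seq cells. With any single cell left out the sum stayed between 0.69 and 1.03.

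Over both comparisons of lactate with control, 34 members were measured in each, 16 with the same sign (47.1%, against 47.4% of the 9395 genes measured in both) and 18 with opposite signs. Slc25a17 was called higher in both (1.42, 0.81 to 2.08 in whole cells). Its values were 74.8, 42.4 and 51.9 CPM in lactate and 17.6 and 25.0 CPM in control whole cells, with no overlap, and the call held with each cell left out. Lactate groups outside these comparisons were lower, at 19.7 CPM (technique experiment, scMeT-seq) and 19.4 CPM (AZD3965 experiment). Control whole cells were at 20.5 CPM as a group. In whole cells the groups did not overlap for 8 of 34 members, against 21.4% of all genes. Slc25a13 and Slc25a14 were called lower in both, in whole cells on 5 against 43 counts and on 9 against 21 counts. The call of Slc25a13 ended without CTL4, which held 41 of its 43 control counts, and that of Slc25a14 without Lactic5, Lactic6 or CTL4. Slc25a18 and Slc25a32 were called in opposite directions. Thus 3 of the 34 members were called in the same direction (8.82%) and 2 in opposite directions (5.88%), against 611 and 677 of the 9395 genes, shares near the background.

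In whole cells Slc25a10 had 70.8, 13.1 and 1.57 CPM with lactate and no count in either control cell, at least 11.9-fold higher against the floor of 3 counts, although 35 of its 44 counts were in Lactic5, without which it was not measured. Slc25a32 had 87.0, 44.1 and 28.3 CPM against 16.4 and 0 CPM (2.35, 1.53 to 3.28), and the call held with each cell left out, at 1.62 without CTL8 and 3.24 without CTL4. Slc25a24, a calcium-regulated carrier that exchanges ATP-Mg for phosphate, was called higher (66.6 against 25.5 CPM, 1.38), as were Slc25a30, a relative of the uncoupling proteins (49.9 against 19.1 CPM, 1.38) and Slc25a51, the NAD carrier (90.1 against 33.3 CPM, 1.44). Slc25a44, which carries branched-chain amino acids, had 28.1 against 9.21 CPM. Leaving out 1 cell ended these calls. Slc25a24 was 0.41 without CTL4 and 2.82 without CTL8, and Slc25a51 0.71 without CTL8 and 4.07 without CTL4. Slc25a30 was 0.88 without Lactic7, and Slc25a44 0.11 without Lactic7, 0.28 without CTL4 and 3.00 without CTL8. Slc25a15, the ornithine carrier, and Slc25a26, the S-adenosylmethionine carrier, were called lower on 23 and 20 counts from CTL4 only, and Slc25a18 on 1 and 18 counts, a call that ended without CTL4. Slc25a37 was at 66.7, 50.6 and 61.4 CPM in lactate and 133 and 78.5 CPM in control whole cells, lower without overlap but under 2-fold (-0.91, -1.28 to -0.54, and -1.17 without CTL8), and Slc25a11 was at 107, 91.4 and 113 CPM against 166 and 164 CPM (-0.67, -0.96 to -0.38). Both were on the other side of 0 in scMeT-seq cells. Slc25a12 had 166 and 80 counts (0.75, 0.36 to 1.15, and -0.51 without Lactic7), Slc25a1 181 and 123 counts (0.25, -0.08 to 0.60) and Slc25a4 313 and 187 counts (0.44, 0.17 to 0.71), none of them called. Slc25a12 was called higher without Lactic5, Lactic6 or CTL8 (1.08 to 1.25) and Slc25a4 without CTL4 (1.13). Slc25a20 had 34 and 38 counts, all control counts from CTL4, and was called higher without CTL4 (at least 3.65-fold) and lower without CTL8 (-1.19). Slc25a22 had 24 and 21 counts and was called lower without Lactic7 (-1.46). Slc25a28 had no count in any whole cell.

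Lactate+AZD cells were compared with lactate cells to see how the carriers stood when MCT1 was inhibited. The ATP-Mg carrier Slc25a24 and the dicarboxylate carrier Slc25a10 stood higher with AZD3965, and the glutamate carrier Slc25a22 and the amino acid carrier Slc25a44 lower. Of 27 measured members, 6 were called higher (22.2%, against 21.7% of 8764 genes) and 6 lower (22.2%, against 12.5% of all genes). The median log2 ratio was -0.04 over the members and 0.17 over all genes. The family as a whole was level, at 2114 CPM with AZD3965 and 2073 CPM without it (0.03, -0.08 to 0.14). TMM scaling would lower every log2 ratio of this comparison by 0.16.

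Slc25a24 had 49.6, 113, 91.9, 34.2 and 88.5 CPM in the lactate+AZD cells T10, W10, W14, F8 and F9, against 0, 0, 22.5, 24.7 and 0 CPM in the lactate cells T11, T13, W5, W20 and F18. It was the only member of the 27 measured whose groups did not overlap, which also held for 33 of all 8764 genes (0.377%). The gap in CPM rests on few counts: F8 had 2 counts at a depth of 58444, and W20 had 4 counts at a depth of 162118. On 47 and 7 counts the log2 ratio was 3.06 (1.90 to 4.45), from 2.66 with any cell left out to 3.91 without W20, and 2.99 without W14, the cell of fibroblast and mesothelial markers. In the other tables, which are deeper, lactate scMeT-seq cells ran from 9.76 to 109 CPM in the lactate experiment and had 0, 11.5, 8.27 and 98.7 CPM in the technique experiment, so their range spans both groups of the AZD3965 experiment.

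Slc25a22 showed the opposite order. It had 66.8 CPM in W10 and 0 in the other 4 lactate+AZD cells, against 56.5, 57.0, 67.4, 43.2 and 99.4 CPM in the lactate cells, so that W10 alone lay in the lactate range. On 10 counts with AZD3965 and 44 without, the log2 ratio was -1.83 (-2.98 to -0.82), -3.13 without W10 and -1.43 without W14, and the call held with each cell left out. As groups these cells were at 17.2 CPM with AZD3965 and 61.1 CPM without. Other lactate groups were near the lactate+AZD value. They had 10.2 CPM (lactate experiment), 12.7 CPM (technique experiment, scMeT-seq) and 13.8 CPM (technique experiment, whole cells). Slc25a44 had counts in 2 lactate+AZD cells (35.4 and 14.1 CPM) and 3 lactate cells (101, 148 and 24.7 CPM), at -2.41 (-3.80 to -1.25), -3.81 without T10 and -1.61 without T13. Slc25a10 had 85.0, 0, 70.7, 154 and 0 CPM with AZD3965 and 52.5 and 22.1 CPM in 2 of the 5 lactate cells, at 2.09 (0.99 to 3.35), or 3.97 without W5. In the other lactate groups, in the order above, Slc25a44 was at 18.4, 84.4 and 28.1 CPM and Slc25a10 at 36.2, 12.3 and 25.2 CPM.

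**Figure D5:**
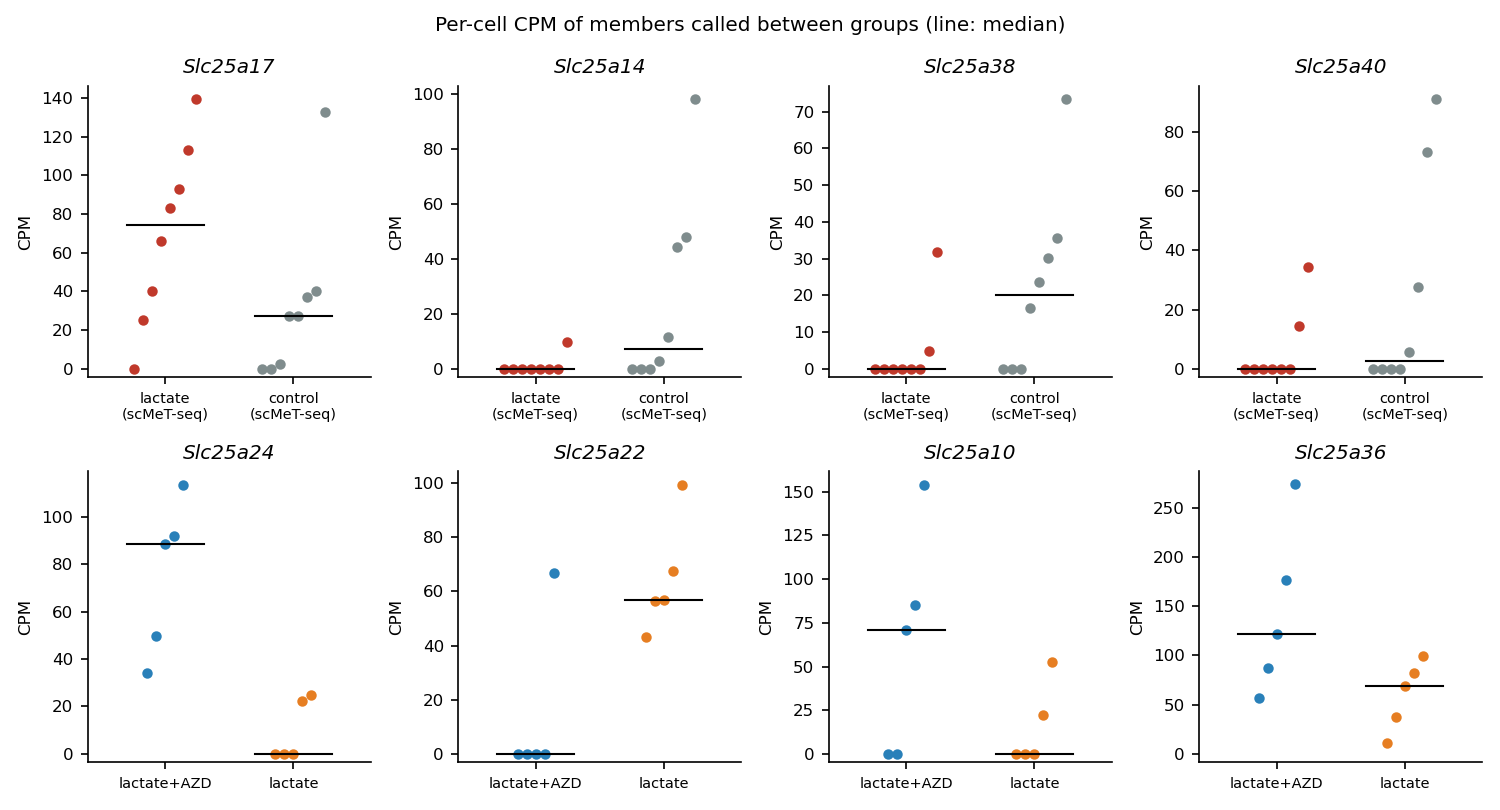
CPM per cell (y axes) of 4 members called between lactate and control scMeT-seq cells (upper row) and 4 called between lactate+AZD and lactate cells (lower row), each dot a cell and each line a median. The CPM values of Slc25a24 do not overlap, with 34.2 CPM as the lowest lactate+AZD value (F8, 2 counts) and 24.7 CPM as the highest lactate value (W20, 4 counts).

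Slc25a36 was called higher with AZD3965 (126 against 54.1 CPM, 1.21, 0.63 to 1.81), the cells having 56.7, 86.8, 177, 274 and 122 CPM against 69.1, 11.4, 82.4, 37.0 and 99.4 CPM. Without T13 it was 0.89 and no longer called. Slc25a14, Slc25a40 and Slc25a43 had 18, 10 and 12 counts with AZD3965 and none without, and were at least 7.44-fold, 4.13-fold and 4.96-fold higher, with 2, 1 and 3 cells behind them. Without W10, Slc25a14 and Slc25a40 were no longer measured, nor Slc25a43 without T10 or F8. Slc25a35 had no count with AZD3965 and 11 without, at least 2.96-fold lower, and fell below the count minimum without T11, T13 or F18. Its exons overlap those of Rangrf on the other strand by 1151 bases, and those reads cannot be told apart. Slc25a32 was called lower (-1.37, -2.56 to -0.31), but not without W10, W14 (-0.97) or T11 (-0.19), and was -3.45 without F9. Slc25a33 was called lower (-2.01, -3.75 to -0.60), but not without W20 (-0.32), and was -2.90 without W10.

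The ADP/ATP and phosphate carriers were at 984 CPM with AZD3965 and 1202 CPM without it, a log2 ratio of -0.29 (-0.44 to -0.13). Slc25a3 was at 262, 167, 269, 257 and 376 CPM against 364, 467, 375, 333 and 486 CPM, with F9 alone of the lactate+AZD cells inside the lactate range (-0.64, -0.94 to -0.35). Slc25a5 had 495 and 563 CPM (-0.19, -0.41 to 0.04). Slc25a4 had 127, 0, 594, 308 and 166 CPM against 132, 427, 217, 160 and 232 CPM, with no count in W10 and its highest value in W14. Its log2 ratio was -0.04 with all cells and -1.04 (-1.52 to -0.58) without W14, which then passed the threshold. Among the carboxylate carriers Slc25a11 had 99.1, 160, 113, 34.2 and 354 CPM against 81.7, 39.9, 45.0, 167 and 33.1 CPM (0.96, 0.46 to 1.47) and was called without T10, W14, F8 or W20 (1.08 to 1.54). Slc25a1 had 122 against 77.7 CPM (0.65, 0.13 to 1.18), Slc25a12 63.7 against 33.3 CPM (0.93, 0.16 to 1.74) and Slc25a13 18.9 against 38.9 CPM (-1.04, -2.19 to 0.01). Slc25a12 was called with any of 4 single cells left out (1.18 to 1.34), and Slc25a13 without T11, T13 or W5 (-1.23 to -1.16) or without T10 (-4.10). Slc25a37 had 65.4 against 54.1 CPM, and Slc25a17 20.6 against 19.4 CPM, a ratio of 0.09 that was -2.09 (-5.28 to 0.03) without W14. Slc25a28, with 3 and 2 counts, was not measured. Slc25a20 was at 15.5 CPM in lactate+AZD cells, all of it in W14, and 19.4 CPM in lactate cells, and was called at least 2.85-fold lower without W14.

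Without W14, 7 members were called higher and 7 lower of 27, against 18% and 17.5% of all genes. Fibroblast markers summed to 4365 CPM with AZD3965 and 1519 CPM without it, with 7 of 10 measured markers higher and 1 lower, and ran from 0 to 17538 CPM in lactate+AZD and from 0 to 6774 CPM in lactate cells. The highest lactate+AZD value of these was that of W14. Outside W14 the highest was 319 CPM (T10), below the lactate cells W5 (6774 CPM) and T11 (1175 CPM). Mesothelial markers summed to 391 CPM with AZD3965, all of it from W14 (1605 CPM in that cell), and were at 0 in all lactate cells. Macrophage markers summed to 63166 CPM with AZD3965 and 89790 CPM without it. The part of these markers in the member values was not tested beyond leaving out W14.

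The effect of drawing cytoplasm was addressed in lactate-treated cells, 4 by scMeT-seq and 3 whole. The main carriers were lower after scMeT-seq by less than 2-fold. Slc25a5 was at 671 CPM after scMeT-seq and 749 CPM in whole cells (-0.16, -0.27 to -0.05), Slc25a3 at 421 and 534 CPM (-0.34, -0.47 to -0.21) and Slc25a4 at 141 and 180 CPM (-0.35, -0.58 to -0.13). Their sum was at -0.25 (-0.32 to -0.17), from -0.45 without Lactic5 to -0.12 without Lactic6. Per cell it was 1200, 1187, 1429 and 1123 CPM after scMeT-seq. In the whole cells Lactic5, Lactic6 and Lactic7 it was 890, 1698 and 1682 CPM, so the groups overlapped through Lactic5 only. The family summed to 2290 CPM after scMeT-seq and 2581 CPM in whole cells, at -0.17 (-0.23 to -0.12). Of 32 measured members, 7 were called higher (21.9%, against 20.3% of 9723 genes) and 9 lower (28.1%, against 19.7% of all genes). The median log2 ratio was -0.14 over the members and 0.02 over all genes. The groups did not overlap for 0 of the 32 members, against 4.77% of all genes. These values share the 3 lactate whole cells with the comparison of lactate and control whole cells.

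Slc25a44 was called higher after scMeT-seq, with 0, 137, 152 and 63.4 CPM in Lactic13, Lactic14, Lactic16 and Lactic17 against 0, 18 and 59.8 CPM in the whole cells (1.59, 1.13 to 2.07), and the call held with each cell left out, at 3.09 without Lactic7. Slc25a26 had 43 counts in 3 scMeT-seq cells and none in whole cells, at least 10.2-fold higher. Lower calls that held with each cell left out were Slc25a17, with 0, 0, 51.3 and 25.1 CPM against 74.8, 42.4 and 51.9 CPM (-1.49, -2.02 to -0.97, and -2.57 without Lactic16), and Slc25a30, with 15.7, 11.5, 29.8 and 10.3 CPM against 72.8, 4.90 and 75.5 CPM (-1.57, -2.14 to -1.02). Slc25a24 (78 against 116 counts), Slc25a45 (52 against 94 counts) and Slc25a51 (97 against 157 counts) were called lower, and each call ended without Lactic13 (-0.62, -0.90 and -0.84). They were at -3.41 and -1.99 without Lactic17 and at -1.88 without Lactic16, in the same order. Slc25a10 was called lower on 30 and 44 counts (-1.04, -1.76 to -0.34), and its direction turned without Lactic5 (0.77), while it was -2.34 without Lactic13. Slc25a12 was not called on 122 and 166 counts (-0.93, -1.28 to -0.58), was at 0.33 without Lactic7 and was called without Lactic5, Lactic6 or Lactic16 (-1.84 to -1.26). Of the other calls, Slc25a27, Slc25a40 and Slc25a53 were higher on 33 and 6, 32 and 11, and 10 and 0 counts, and Slc25a14, Slc25a32 and Slc25a33 lower on 3 and 9, 55 and 88, and 5 and 12 counts. Each of these 6 calls ended with at least 1 cell left out, and Slc25a40 turned to the other direction, at -1.92, without Lactic13. Slc25a1, Slc25a11 and Slc25a22 were at 107 and 104, 112 and 104, and 12.7 and 13.8 CPM. Slc25a20 was called higher (43.8 against 19.5 CPM) until Lactic14, Lactic17 or Lactic5 was left out (0.53 to 0.69), and Slc25a13 had 7.79 against 2.87 CPM, called higher with any of 3 cells left out (1.85 to 2.14). Slc25a22 was called lower without Lactic17 (-1.14). Slc25a37 had 79.9 against 59.1 CPM (0.44, 0.08 to 0.79), and -0.03 without Lactic13. Slc25a28 was not measured, with 1 count after scMeT-seq.

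Genes that serve the carriers are given beside the shares of all genes called. Of the 12 genes of the import route (TOM receptors and pore, small TIM chaperones and the TIM22 complex), 0 were called higher and 1 lower with lactate in scMeT-seq cells, 0 and 3 with lactate in whole cells, 1 and 0 with AZD3965, and 2 and 1 after scMeT-seq. Over all genes the shares called higher and lower were 14.1% and 20.9%, 14.1% and 26.4%, 21.7% and 12.5%, and 20.3% and 19.7%, in the same order, so that 3 lower of 12 in whole cells is close to the background. Agk, a lipid kinase and subunit of the TIM22 complex, was lower with lactate over control in scMeT-seq (-1.31, -1.80 to -0.83). It was also lower in whole cells, on 12 and 35 counts (-1.85, -2.93 to -0.87). However, lactate-treated scMeT-seq cells of the technique experiment had 21.3 CPM against 6.89 CPM in lactate whole cells (1.63, 0.71 to 2.67). That is near the 24.8 CPM of control whole cells. Of the inner membrane transporters outside the family, 0 of 9 were called higher and 1 lower with lactate in scMeT-seq cells, 0 and 2 of 8 with lactate in whole cells, 1 and 0 of 6 with AZD3965, and 0 and 1 of 8 after scMeT-seq. Mpc1, a subunit of the mitochondrial pyruvate carrier, had 4 counts in lactate and 31 in control scMeT-seq cells (-3.00, -4.96 to -1.50). In whole cells it had 10 counts with lactate and 6 in control (0.43, -1.17 to 2.18), not called and on the other side of 0. Of the 4 shuttle enzymes, Mdh1, the cytosolic malate dehydrogenase, was called higher with lactate in whole cells (1.21, 0.99 to 1.43) and stood lower at -0.99 (-1.17 to -0.81), short of 2-fold, in scMeT-seq cells. The 3 outer membrane channels Vdac1, Vdac2 and Vdac3 had 1 call in the 4 comparisons, Vdac3 lower after scMeT-seq (-1.15, -1.38 to -0.92). Ucp2, an uncoupling-protein family member outside the naming pattern, had 1097 CPM in lactate and 970 CPM in control scMeT-seq cells (0.18, 0.10 to 0.25), and none of the 3 measured carriers named outside the pattern was called in the 4 comparisons.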

How the data were processed

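RNA was measured in 35 single cells labelled as peritoneal macrophages, with 1 library per cell and each group taken as 1 sample. What the authors deposited are raw counts per gene, whole numbers that StringTie gave from fastp-trimmed reads placed on mm10 by HISAT2. From these counts, CPM, log2 ratios of summed CPM and exact conditional binomial 95% intervals were computed in Python 3.11.15 (scipy 1.17.1, numpy 2.4.6, pandas 2.3.3), and TMM factors with edgeR 4.0.16 in R 4.3.3. Figures used matplotlib 3.10.9. Genes under 10 counts over both groups were left out, a called gene differed at least 2-fold with its interval on that side of 0, and a sum of 0 was set to 3 counts. No test between groups was run over cells, and Dixon's test within groups only marked lone extreme cells. The intervals were tested on simulated Poisson counts. These hold no variation between cells or from PCR copies, so that test could not judge the intervals for either. Coordinates and exon lengths came from GENCODE M21 (GRCm38), matched for 47 of 47 symbols, and promoter sequences from RefSeq (GRCm38.p6).

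The family, its roles and the lists were chosen for study with earlier results of these data known, although membership goes by symbol, and 4 comparisons were made. Named with values were the 6 members highest per kilobase, the carriers of the malate-aspartate shuttle, citrate, dicarboxylates, adenine nucleotides, phosphate, carnitine and iron, and called members found in at least 50% of the cells of the group where they stood higher, provided that no single cell gave more than 50% of that group's CPM. Other called members were named after their values had been seen. The values of 1 member are not reported here, although sums and counts over the family include it. Alternatives were the mean of per-cell CPM, TMM and median-of-ratios size factors, a filter of 100 counts and none, 2-fold alone, a detection limit of 5 counts, thinning, all 5 whole cells, cells with a shared number and each cell left out. Length by principal transcript, and role sums without single or marked cells, were added after the data had been seen. The pseudogene Slc25a5-ps had 1 count in the AZD3965 table and was left out, beside 694 counts of Slc25a5. Metabolomes were not analysed here.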

Additional observations from a re-analysis of the deposited data

Results flagged for a closer look

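Dixon's test for a lone extreme cell was run on 40 combinations of a group of 4 to 10 cells and a quantity, where chance alone marks about 1 in 20. It marked 3. Slc25a39 was at 327 CPM in the control scMeT-seq cell CTL27, with the other 7 control cells between 64.5 and 185 CPM. Slc25a5 was at 847 CPM in Lactic16, a scMeT-seq cell of the technique experiment, with the other 3 cells between 591 and 626 CPM. F18, a lactate cell of the AZD3965 experiment, had counts for 16 members, with the other 4 cells at 19 to 20.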

How the results depend on the processing

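Family sums depended on scaling and cells. Counts of called members are given here without the share of all genes called at the same setting, so they describe the members only. For lactate over control in scMeT-seq cells the log2 ratio of the summed family was -0.11 under TMM and -0.10 without Lactic29, CTL30 and CTL32, and ran from -0.25 to -0.11 with 1 cell left out. Members called higher then ran from 3 to 8 and lower from 4 to 8, and with a filter of 100 counts, which leaves fewer members, 1 was higher and 2 were lower. For lactate+AZD over lactate the family sum was -0.13 under TMM and -0.14 under size factors, and ran from -0.06 to 0.12 with 1 cell left out, with 4 to 8 members higher and 4 to 7 lower. The filter of 100 counts left 1 higher and 0 lower. For scMeT-seq over whole cells the family sum was 0.02 against all 5 whole cells and ran from -0.31 to -0.03 with 1 cell left out, with 4 to 7 members higher and 5 to 10 lower, and the filter of 100 counts left 3 higher. Slc25a10 there ran from -2.34 to 0.77 and turned its direction without Lactic5, and Slc25a40 turned without Lactic13 (-1.92). No other called member changed direction with 1 cell left out. For lactate over control in whole cells the family sum was 0.66 under TMM and 0.70 under size factors. There 11 members were higher, with the log2 ratio of every gene raised by 0.23. It ran from 0.33 to 0.63 with 1 cell left out, with 5 to 11 members higher and 0 to 10 lower, and the filter of 100 counts left 0 lower. Apart from the filter, which tests fewer members, and the scalings, which shift all genes alike, the cause was not tested. Restricted to the scMeT-seq cells whose number occurs in both the lactate and the control group, the family sum was -0.17, with 6 members higher and 8 lower. No paired analysis was possible because the shared cell numbers name no animal or culture and each group is 1 sample. Each group is 1 sample, depth in the AZD3965 experiment was the lowest, and members under about 10 counts cannot be compared there.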
